A study of Mus musculus with 8 samples.

Results

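The genes examined were 6 matrix metalloproteinases (*Mmp2*, *Mmp9*, *Mmp11*, *Mmp14*, *Mmp15* and *Mmp16*) and the 4 tissue inhibitors of metalloproteinases (*Timp1*, *Timp2*, *Timp3* and *Timp4*). They were taken by symbol from the deposited table of read counts, in which all 10 were found among 24091 genes. The libraries came from pancreatic islets of 6-week-old C57BL/6 mice, 4 libraries labelled wild-type (controls) and 4 labelled Ngn3-Cre, itgb1-/- (*Itgb1*ΔEndo/ΔEndo, here called mutants). The paper's methods name littermate controls for immunofluorescence and do not say whether the islets sequenced came from littermates. *Itgb1* encodes the integrin β1 subunit, through which cells hold on to extracellular matrix (ECM), and the question was how its loss changes gene expression in the islet. The Cre is driven by *Ngn3* and acts in endocrine progenitors, and endothelial, stromal and immune cells of the islet are outside that lineage. Whether those cells kept *Itgb1* cannot be read from whole islets. Islets were freed with collagenase, collected under a microscope and kept overnight in culture medium. Nothing in the labels ties a library to one animal, and p-values therefore speak only of the spread among these 8 libraries, part of which may be technical.

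Matrix metalloproteinases (MMPs) are zinc enzymes that cut collagens, laminins and other matrix proteins, and they are made as inactive precursors that must be activated. *Mmp2* and *Mmp9* encode the gelatinases, which cut basement membrane collagen and denatured collagen. *Mmp14*, *Mmp15* and *Mmp16* encode proteases that are anchored in the cell membrane, and *Mmp11* encodes stromelysin 3, which is activated inside the cell by furin. Tissue inhibitors of metalloproteinases (TIMPs) bind the active site of MMPs one to one. Timp2 also takes part in the activation of the Mmp2 precursor by Mmp14 at the cell surface, and Timp3 binds to the matrix itself and also inhibits proteases of the ADAM and ADAMTS families.

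The coding sequences of the active site show what the 6 proteases share. A search of the translated GENCODE M21 transcripts (GRCm38) found the zinc-binding site in each, over 33 bases that lie in 1 exon. The codons of the 3 histidines that hold the zinc ion and of the catalytic glutamate are in capitals, written 5′ to 3′.
Mmp2 (chr8:92839279-92839311, plus strand): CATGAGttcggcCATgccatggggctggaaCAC
Mmp9 (chr2:164951133-164951165, plus strand): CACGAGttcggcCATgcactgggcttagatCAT
Mmp11 (chr10:75926931-75926963, minus strand): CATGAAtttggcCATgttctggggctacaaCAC
Mmp14 (chr14:54437627-54437659, plus strand): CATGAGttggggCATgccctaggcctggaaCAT
Mmp15 (chr8:95368585-95368617, plus strand): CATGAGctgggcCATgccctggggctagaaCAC
Mmp16 (chr4:18051748-18051780, plus strand): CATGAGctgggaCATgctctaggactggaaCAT
Between pairs of proteases 23 to 29 of the 33 bases were identical. In the membrane-anchored Mmp14 the site covers residues 239 to 249 of 582. The inhibitors act through the cysteine that begins the mature protein, which enters the active site of the protease and meets its zinc ion. The start of the mature inhibitor is given over 27 bases, with the codons of the first cysteine and of the cysteine that follows it in capitals.
Timp1 (chrX:20871111-20871137, plus strand): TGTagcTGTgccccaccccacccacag
Timp2 (chr11:118354986-118355012, minus strand): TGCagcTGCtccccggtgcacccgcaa
Timp3 (chr10:86300923-86300949, plus strand): TGCacaTGCtctcccagccatccccag
Timp4 (chr6:115251665-115251691, minus strand): TGCagcTGTgcgcctgcgcacccccag
Between pairs of inhibitors 16 to 21 of the 27 bases were identical.

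Libraries held 35.1 to 67.6 M counts. Control 2, control 3 and mutant 3 held over 50 M, and the other 5 libraries 35.1 to 41.0 M. Levels are given in CPM (counts scaled to a library of 1 M with TMM factors) and always in the order of libraries 1 to 4. *Itgb1* was at 422, 432, 408 and 315 CPM in the controls against 266, 225, 193 and 255 CPM in the mutants. All mutants lay below all controls (p = 0.0286 by a two-sided exact permutation, which cannot give less with 4 libraries a side). Reads were summed over the whole gene, and cells outside the endocrine lineage count too. Controls 2 and 3 stood apart in cell markers. The summed level of 10 acinar cell markers was 3316 and 10311 CPM in them against 29.8 to 723 CPM in the other 6 libraries, and that of 10 β-cell markers was 121335 and 174173 CPM against 31832 to 49586 CPM. Results are therefore also given for the 5 libraries of under 50 M counts (3 mutants and 2 controls), for all 8 libraries with a term for this division, and for the 4 mutants against controls 1 and 4, the last chosen after seeing the data. The division puts mutant 3, at 124 CPM of acinar and 49586 CPM of β-cell markers, with controls 2 and 3. The term is therefore no adjustment for the markers in which those controls stood apart.

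Per kilobase of gene length, the scale on which genes can be compared, *Timp3* had the highest mean level of the 10 genes in controls (37.3 CPM per kb), followed by *Timp2* (10.9), *Mmp14* (9.44), *Mmp2* (5.96) and *Timp1* (5.16). In mutants *Mmp14* came first, with a mean level of 29.2 CPM per kb, and *Timp3* (26.1), *Timp1* (17.2), *Mmp2* (12.8) and *Timp2* (11.4) followed. *Mmp15* was at 2.24 and 3.19 CPM per kb in controls and mutants. *Mmp9*, *Mmp11* and *Mmp16* were at 0.121 to 0.693 CPM per kb in controls and 0.207 to 1.03 in mutants. *Timp4* was at the edge of detection. With control SDs close to the size of the means for *Mmp2* and *Timp1*, neighbours in the order of the controls below *Timp3* did not differ beyond their spread. The same held in mutants for *Mmp14* and *Timp3*, and for *Timp1*, *Mmp2* and *Timp2*.

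**Figure D1:**
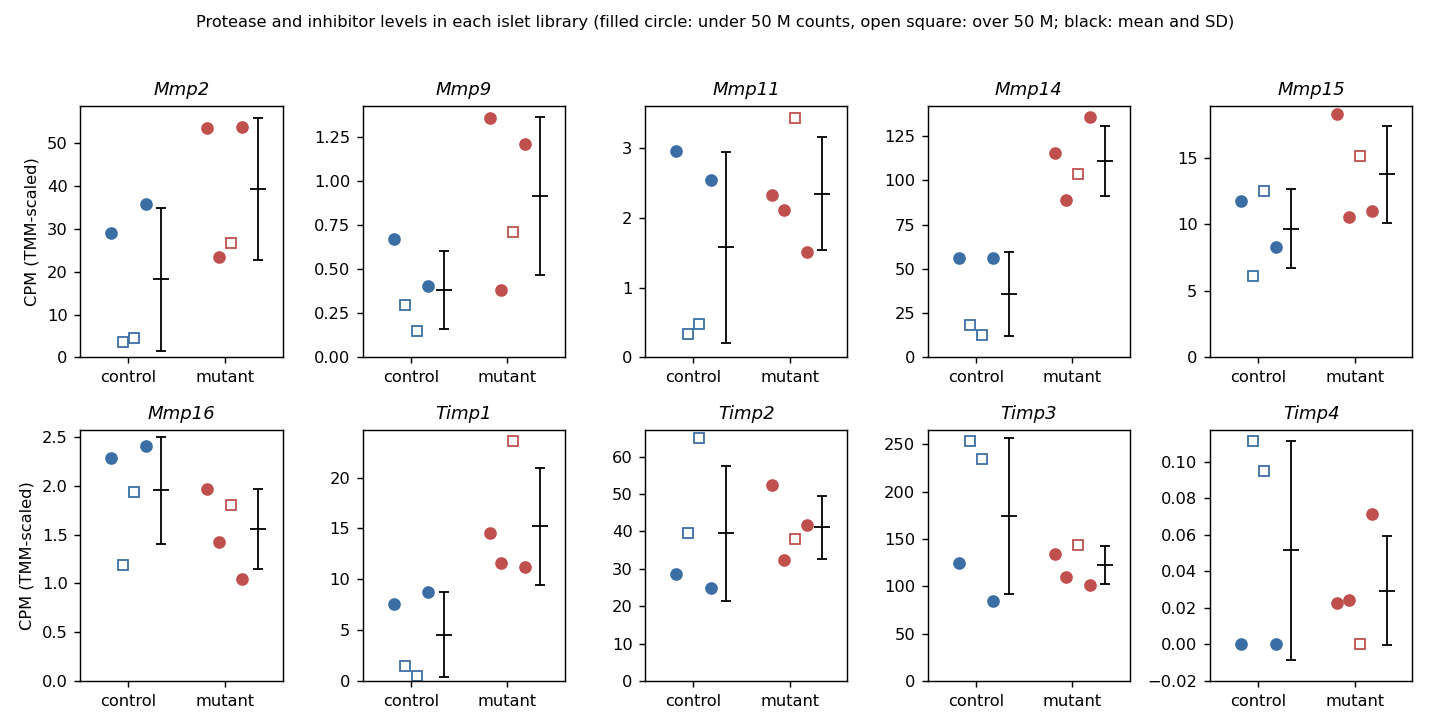
Level of each of the 10 genes in CPM (vertical axis, TMM-scaled, a separate linear scale per gene) in the 4 control and 4 mutant libraries. Filled circles are libraries of under 50 M counts, open squares those of over 50 M, and the black mark is the mean with its SD. For *Mmp14* and *Timp1* all mutants lie above all controls, and controls 2 and 3 (open squares) are the lowest controls.

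*Mmp14* and *Timp1* were the members with no overlap between the groups, both higher in mutants. Of the 9 members that had enough counts to be tested, 2 had all mutants above all controls (4.40% of all genes tested) and 0 all mutants below (3.80%). By edgeR's quasi-likelihood test 0 of the 9 passed an adjusted p below 0.05 with a fold change above 2, as did 0 of 15233 genes (0% in either direction). At an unadjusted p below 0.05 there were 3 members higher, *Mmp9*, *Mmp14* and *Timp1* (background 6.80% of genes higher), and 0 lower (background 7.19%). DESeq2 called 1 member, *Mmp14* (background 0.730% of genes higher and 1.23% in either direction). The median log2 fold change of the 9 members was 0.61, against 0.0015 over all genes tested. With a term for the division 4 members were higher at an unadjusted p below 0.05, *Mmp2* joining the 3 above, and 0 lower (background 8.65% and 6.54%). In the 5 libraries of under 50 M counts there were 3, *Mmp14*, *Timp1* and *Timp2*, and 0 lower (background 12.6% and 10.7%), and the same 3 for the 4 mutants against controls 1 and 4 (background 4.15% and 4.01%). Past an adjusted p of 0.05 and a fold change of 2 there were 0 members in these fits, against 0.0197% of genes higher with the term and 0.0449% higher and 0.0192% lower in the 5 libraries. An interaction of genotype with library size passed an adjusted p of 0.05 in edgeR for 3 of 9 members (background 11.4% of genes). The larger libraries hold 1 mutant, so that this compares a single library with the rest and does not show a difference in the effect of genotype. The median log2 fold change was 0.42 in the 5 libraries of under 50 M counts, 0.74 with a term for the division and 0.46 for the 4 mutants against controls 1 and 4. Left out one at a time, control 2, mutant 1 or mutant 4 reduced the members at an unadjusted p below 0.05 from 3 to 1, *Mmp14*. The share of all genes at that p was not computed with a library left out. The median was 0.34 without control 2, 1.11 without control 1 and 0.96 without control 4. In a whole islet, more cells that make a transcript and more transcript per cell cannot be told apart.

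The membrane-anchored protease *Mmp14* is a plus-strand gene at 54431598 to 54442456 of chromosome 14 (GRCm38, as for all positions here). Its level was 56.4, 18.3, 12.6 and 55.9 CPM in the controls against 116, 88.6, 104 and 136 CPM in the mutants. The lowest mutant was above the highest control, and controls 2 and 3 were well below the other controls. Means were 35.8 ± 23.6 and 111 ± 19.8 CPM (SD, n = 4 each). This is a log2 fold change of 1.63 (SE 0.47). In edgeR's fit its adjusted p was 0.333, in DESeq2 it was 0.0272, and by exact permutation p was 0.0286. In the 5 libraries of under 50 M counts it was 1.01 (SE 0.18, edgeR unadjusted p = 0.00142, adjusted p = 0.0790). For the 4 mutants against controls 1 and 4 it was 0.98 (SE 0.17), a value that controls 2 and 3 do not enter. With a term for the division it was 1.65 (SE 0.35, edgeR adjusted p = 0.137).

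The other membrane-anchored proteases were lower in level and overlapped between the groups. *Mmp15*, on chromosome 8 from 95352296 to 95374293, gave 6.14 to 12.5 CPM in controls against 10.6 to 18.3 CPM in mutants. The difference on the log2 scale was 0.51 (SE 0.27) over all 8 libraries and 0.41 (SE 0.30) in the 5, neither past an adjusted p of 0.05 in edgeR's test. *Mmp16*, on chromosome 4 from 17852893 to 18118734, is the one protease of the 6 with a lower mean in mutants. It had 1.19 to 2.41 CPM in controls and 1.04 to 1.97 in mutants, a log2 fold change of -0.32 (SE 0.31, edgeR adjusted p = 0.631). In the 5 libraries it was -0.67 (SE 0.30), and in mutant 3 against controls 2 and 3 it was 0.23.

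The gelatinases had higher means in mutants. *Mmp2*, on chromosome 8 from 92827297 to 92853421, was at 29.1, 3.62, 4.45 and 35.8 CPM in the controls against 53.5, 23.3, 26.6 and 53.7 CPM in the mutants. Mutants 2 and 3 lay below controls 1 and 4, so the groups overlapped. A log2 fold change of 1.11 (SE 0.73) had an adjusted p of 0.479 in edgeR, and the value was 0.42 (SE 0.37) in the 5 libraries of under 50 M counts. It was 0.27 (SE 0.39) for the 4 mutants against controls 1 and 4. *Mmp9*, on chromosome 2 from 164948219 to 164955850, was close to the lower end of what was counted, with 26, 16, 8 and 17 reads in controls and 60, 16, 48 and 51 in mutants. These counts give 0.152 to 0.675 CPM in controls and 0.385 to 1.36 CPM in mutants. The difference on the log2 scale was 1.29 (SE 0.53, edgeR unadjusted p = 0.0383, adjusted p = 0.341), and 0.88 (SE 0.61) in the 5 libraries. The furin-activated *Mmp11*, on chromosome 10 from 75923222 to 75932502, was at 2.96, 0.334, 0.475 and 2.55 CPM in the controls against 2.33, 2.12, 3.44 and 1.52 CPM in the mutants. Controls 1 and 4 were as high as the mutants, and controls 2 and 3 were below all other libraries. On the log2 scale the difference was 0.61 (SE 0.66) over all 8 libraries and -0.47 (SE 0.25) in the 5.

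Of the inhibitors, *Timp1* had the largest difference. It lies on chromosome X from 20870166 to 20874737, and its level was 7.55, 1.43, 0.513 and 8.75 CPM in the controls against 14.5, 11.6, 23.5 and 11.2 CPM in the mutants. Every mutant was above every control, with mutant 3 the highest and controls 2 and 3 the lowest. Means were 4.56 ± 4.19 and 15.2 ± 5.75 CPM (SD, n = 4 each). The log2 fold change of 1.75 (SE 0.75) had an unadjusted p of 0.0462 and an adjusted p of 0.351 in edgeR, and an adjusted p of 0.169 in DESeq2. By exact permutation p was 0.0286. Without control 2 or any one of the mutants the unadjusted p was above 0.05. In the 5 libraries it was 0.60 (SE 0.16, edgeR unadjusted p = 0.0106, adjusted p = 0.125), and for the 4 mutants against controls 1 and 4 it was 0.91 (SE 0.35). In mutant 3 against controls 2 and 3 it was 4.61. *Timp1* is X-linked, and by *Xist* (1125 and 1225 CPM, against at most 0.752 CPM elsewhere) control 3 and mutant 3 were female, the libraries with the lowest and the highest level of *Timp1*. The part of sex in its level was not tested.

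*Timp3*, the inhibitor that binds to matrix, lies on chromosome 10 from 86300412 to 86349505. It was at 125, 254, 234 and 84.6 CPM in the controls against 134, 110, 144 and 101 CPM in the mutants. Controls 2 and 3 were above all other libraries, the reverse of their place for *Mmp14* and *Timp1*, while controls 1 and 4 lay within or below the range of the mutants. On the log2 scale it differed by -0.51 (SE 0.33, edgeR adjusted p = 0.471) over all 8 libraries and 0.13 (SE 0.19) in the 5. *Timp2*, on chromosome 11 from 118301061 to 118355411, was at 28.5, 39.6, 65.1 and 24.9 CPM in the controls against 52.3, 32.3, 37.9 and 41.8 CPM in the mutants. The means differed by 0.056 on the log2 scale (SE 0.30, edgeR adjusted p = 0.944). In the 5 libraries, where controls were at 28.5 and 24.9 CPM and all mutants above both, it was 0.65 (SE 0.21, edgeR unadjusted p = 0.0200, adjusted p = 0.151). *Timp4*, on chromosome 6 from 115245616 to 115251849, did not pass the low count filter. It had 0, 6, 5 and 0 reads in controls and 1, 1, 0 and 3 in mutants, and a count of 0 allows up to 0.0443 to 0.0778 CPM in the libraries without a read (3 reads per library, counting error only).

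**Figure D2:**
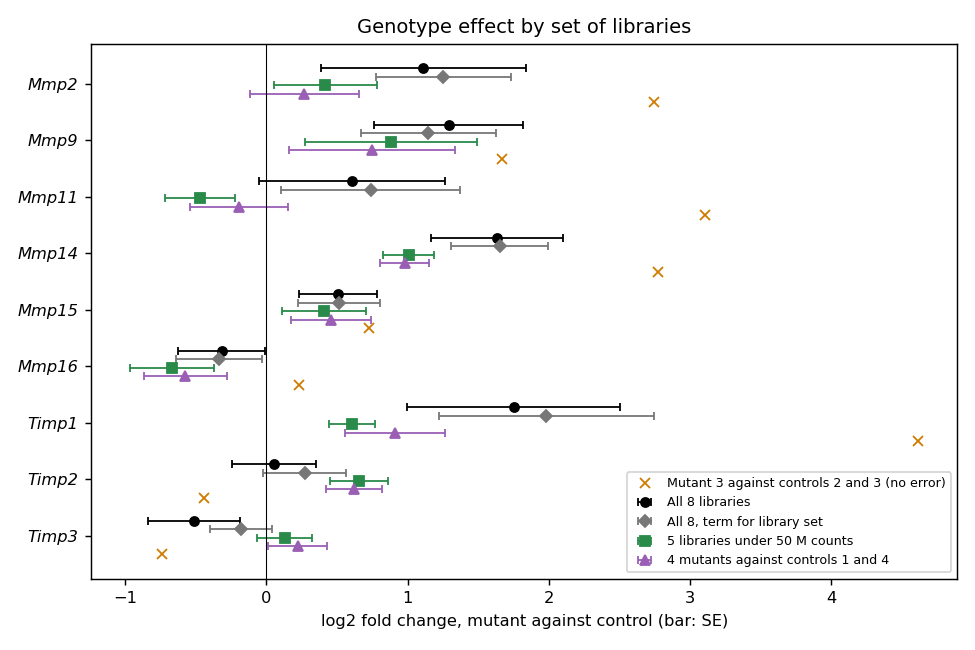
Log2 fold change of mutants against controls (horizontal axis, bars are the SE) for the 9 members tested, in edgeR's fits over all 8 libraries, over all 8 with a term for the library division, in the 5 libraries of under 50 M counts and for the 4 mutants against controls 1 and 4. Crosses give mutant 3 against controls 2 and 3 with no error. *Mmp2*, *Mmp9*, *Mmp14*, *Mmp15* and *Timp1* are above 0 in every fit, whereas *Mmp11*, *Timp2*, *Timp3* and *Mmp16* are on both sides of 0.

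Inhibitor genes lie inside synapsin genes, which encode proteins of synaptic and granule vesicles, on the opposite strand. In GENCODE M21 *Timp1* lies within *Syn1*, *Timp3* within *Syn3* and *Timp4* within *Syn2*. featureCounts at default parameters does not use strand, so reads from an unspliced synapsin transcript and from the inhibitor inside it cannot be told apart. *Syn1*, named after its values were seen, was at 77.2, 135, 132 and 88.1 CPM in the controls against 78.5, 95.6, 110 and 83.9 CPM in the mutants. It was highest in controls 2 and 3, where *Timp1* was lowest. *Syn3*, named likewise, had 8.23 to 11.8 CPM over the 8 libraries, and *Syn2* 55.4 to 101 CPM. *Timp2* shares part of its span with *Cep295nl* on the same strand, and its counts are uncertain to that extent.

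Summed over the 4 inhibitors and over the 6 proteases, the balance of transcripts differed between libraries of the same genotype. The ratio of inhibitor CPM to protease CPM was 1.56, 9.89, 9.34 and 1.12 in controls 1 to 4 and 1.04, 1.22, 1.36 and 0.755 in mutants 1 to 4. Controls 2 and 3 were far above the rest, and the other 2 controls were within or just above the range of the mutants. On the log2 scale the difference, mutant mean minus control mean, was -1.74 over all 8 libraries and -0.43 in the 5 libraries of under 50 M counts. In mutant 3 against controls 2 and 3 it was -2.83. With counts per kilobase in place of CPM the difference over all 8 libraries was -1.51. Because the sums are scores over the members, no test is given. *Mmp14* made up 39.2 to 61.2% of protease CPM in controls and 59.9 to 70.1% in mutants, and *Mmp2* 12.1 to 33.9% and 17.6 to 27.7%. *Timp3* made up 71.5 to 86.1% of inhibitor CPM in controls and 65.6 to 71.5% in mutants. *Timp1* made up 0.171 to 7.40% in controls and 7.25 to 11.5% in mutants. The ratio of *Mmp14* to *Timp2* CPM, the pair that acts on the Mmp2 precursor, was 1.98, 0.462, 0.193 and 2.24 in controls 1 to 4 and 2.21, 2.74, 2.74 and 3.24 in mutants 1 to 4. A ratio within a library does not depend on scaling between libraries, but mutant 1 lay below control 4, so the groups overlapped.

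**Figure D3:**
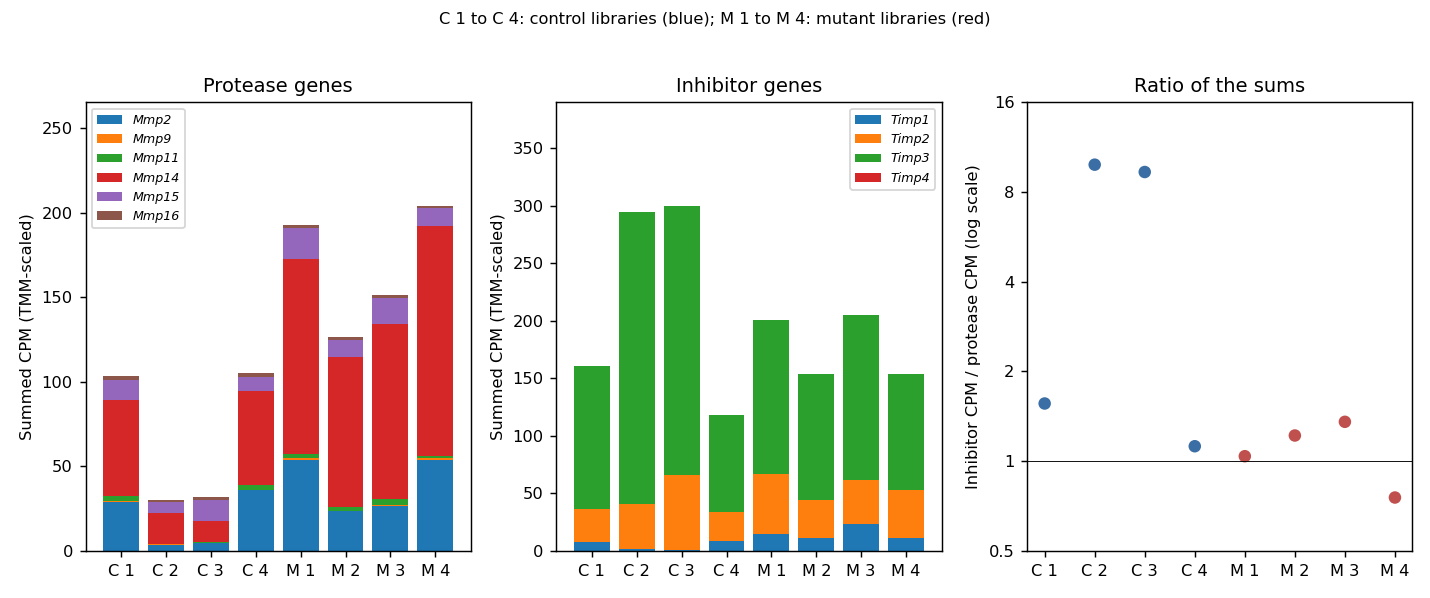
Stacked bars give the CPM of the 6 protease genes (left) and the 4 inhibitor genes (middle) in controls C 1 to C 4 and mutants M 1 to M 4, and the points (right, log scale) give inhibitor CPM over protease CPM in each library. The ratio is 9.89 and 9.34 in controls 2 and 3 and between 0.755 and 1.56 in the other 6 libraries.

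The promoters of the genes with no overlap between the groups, *Mmp14* and *Timp1*, are shown because they were the members higher in all mutants. RefSeq promoter sequences on GRCm38.p6 were matched by symbol for 7 of the 10 members (*Mmp11*, *Mmp14*, *Mmp15* and the 4 inhibitors). The 250 bases before the start of the gene are given 5′ to 3′. Capitals mark matches on either strand to the SP1 box (GGGCGG) and to the core of the hypoxia response element (ACGTG), which do not overlap here.
Mmp14 (chr14:54431348-54431597, plus strand): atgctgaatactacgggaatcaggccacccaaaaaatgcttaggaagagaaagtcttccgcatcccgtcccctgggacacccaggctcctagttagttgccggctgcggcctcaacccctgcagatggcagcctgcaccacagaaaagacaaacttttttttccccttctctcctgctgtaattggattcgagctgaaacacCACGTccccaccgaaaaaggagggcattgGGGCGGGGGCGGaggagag
Timp1 (chrX:20869916-20870165, plus strand): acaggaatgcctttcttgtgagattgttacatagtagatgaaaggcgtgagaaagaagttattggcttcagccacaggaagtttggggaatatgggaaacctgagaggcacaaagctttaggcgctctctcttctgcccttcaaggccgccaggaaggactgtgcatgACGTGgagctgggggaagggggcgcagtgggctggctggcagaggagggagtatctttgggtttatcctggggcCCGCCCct
The ACGTG core was found 48 bases upstream of the start in *Mmp14* and 82 bases upstream in *Timp1*, and in none of the other 5 promoters. Of all 32851 promoter windows of this length 16.6% hold it. The GGGCGG box was found in 6 of the 7 promoters, all but that of *Timp4*, and in 32.7% of all windows. Neither the AP-1 site TGANTCA, held by 6.7% of all windows, nor the letters TATAAA, held by 12.4%, were found in any of the 7. A match is a description of the letters and no evidence of binding.

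Genes around this system were read from lists chosen with earlier results of these data known. Of 17 other MMPs, 11 were tested. At an unadjusted p below 0.05, 0 of them were higher and 1 lower (for this and the next 3 lists the background was 6.80% of genes higher and 7.19% lower). The one was *Mmp12*, the macrophage elastase, with 3.24 to 12.2 CPM in controls against 2.51 to 5.65 CPM in mutants, a log2 fold change of -1.08 (SE 0.43, edgeR adjusted p = 0.339), and -0.24 in the 5 libraries. *Mmp19*, *Mmp28* and *Mmp23*, next by p-value, had log2 fold changes of 1.10, 0.67 and 0.56, with adjusted p-values of 0.380 to 0.475 in edgeR's test. The median of the 11 was 0.56.

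Of 26 ADAM and ADAMTS proteases, relatives of the MMPs, 24 were tested. At an unadjusted p below 0.05 there were 8 higher and 1 lower, and the median log2 fold change was 0.70. *Adamts2*, which trims the amino end of fibrillar procollagen, was at 9.42, 3.80, 5.26 and 6.32 CPM in the controls against 15.9, 17.1, 14.7 and 21.5 CPM in the mutants, with no overlap. The difference on the log2 scale was 1.48 (SE 0.28, adjusted p = 0.233 in edgeR, 0.000231 in DESeq2), and 1.21 in the 5 libraries. *Adam15*, a membrane-anchored ADAM, was at 0.65. *Adam33* was at 1.81 (SE 0.64, edgeR adjusted p = 0.333) on few reads, 12, 11, 12 and 10 in controls and 65, 34, 10 and 45 in mutants. Mutant 3 (0.148 CPM) lay below every control (0.204 to 0.311 CPM). *Adamts17* was at -1.26 (SE 0.32, adjusted p = 0.333 in edgeR, 0.0241 in DESeq2), with all mutants below all controls.

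Of 25 activators, receptors and other inhibitors, 21 were tested. At an unadjusted p below 0.05, 7 of them were higher and 2 lower, with a median log2 fold change of 0.58. *Lrp1*, the receptor that clears MMPs and their complexes from the cell surface, was at 189, 77.6, 157 and 180 CPM in the controls against 325, 252, 297 and 318 CPM in the mutants, a log2 fold change of 0.98 (SE 0.25, edgeR adjusted p = 0.333). *Pcolce*, an enhancer of procollagen processing, was at 0.98, with no overlap. *Bsg*, which encodes an inducer of MMP expression (basigin), was at 0.58. *Spock3*, a testican proteoglycan, was at -1.75 (SE 0.40, adjusted p = 0.301 in edgeR, 0.00467 in DESeq2), with all mutants below all controls.

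Of 24 matrix substrates, 23 were tested. At an unadjusted p below 0.05, 15 of them were higher and 0 lower, with a median log2 fold change of 0.82. All 23 had a higher mean in mutants, and 12 had all mutants above all controls (background 4.40%). The collagen I chains *Col1a1* and *Col1a2* differed by 1.80 (SE 0.35) and by 1.56 (SE 0.28) on the log2 scale, with adjusted p-values of 0.233 and 0.219 in edgeR, and 0.000262 and 0.000104 in DESeq2. The collagen-binding *Sparc* was at 0.91, and *Nid1*, a basement membrane linker, at 0.69. By edgeR's test 0 genes of the 4 lists passed an adjusted p below 0.05 with a fold change above 2, while DESeq2 called 0, 1, 0 and 8 of them higher and 0, 1, 1 and 0 lower, in the order given. In the 5 libraries the medians of the 4 lists were 0.47, 0.40, 0.54 and 0.66.

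**Figure D4:**
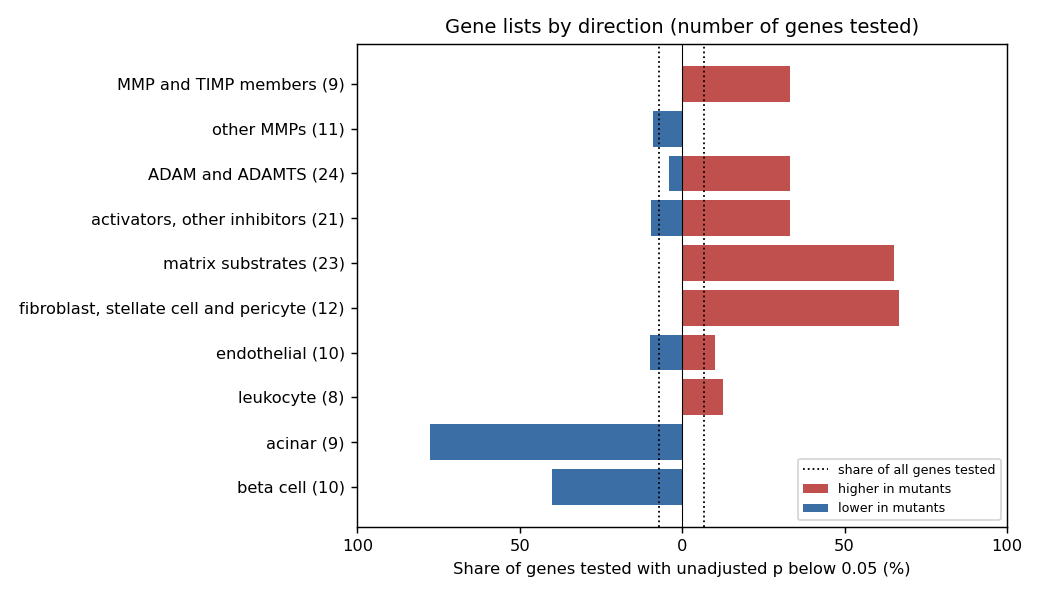
Share of the genes tested in each list with an unadjusted p below 0.05 in edgeR's test over all 8 libraries (horizontal axis, percent), to the right for genes higher and to the left for genes lower in mutants, with the number of genes tested in brackets. Dotted lines are the shares of all 15233 genes. The list of substrates and that of fibroblast, stellate cell and pericyte markers have the longest bars to the right, with 15 of 23 and 8 of 12 genes.

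Most but not all of the listed markers of stromal cells, which make many MMPs and TIMPs, were higher in mutants. Of 12 markers of fibroblasts, stellate cells and pericytes, 8 were higher and 0 lower (unadjusted p below 0.05 in edgeR, background 6.80% and 7.19%), and 6 had all mutants above all controls (background 4.40%). Of the 8, *Des* and *Acta2*, named after their values were seen, were far highest in mutant 1, at 47.1 and 63.8 CPM. The other mutants had 7.57 to 8.35 CPM of *Des* and 4.22 to 8.35 CPM of *Acta2*, the latter below control 3 (9.16 CPM). DESeq2 gave no p-value for either. The 4 that did not pass, named after their values were seen, were *Pdgfra* (log2 fold change 1.22), *Notch3* (0.12), *Rgs5* (-0.26) and *Thy1* (-0.28). In the 5 libraries of under 50 M counts *Rgs5* was at 0.74 and *Notch3* at 0.60 (edgeR unadjusted p = 0.000824 and 0.00406). *Pdgfra* was at 0.61 (SE 0.34) there and *Thy1* at 0.081 (SE 0.32). *Rgs5*, a pericyte marker, was at 102, 213, 254 and 97.5 CPM in the controls against 193, 149, 53.2 and 161 CPM in the mutants, highest in controls 2 and 3, where *Mmp14* was lowest, and *Pdgfra* was lowest in those controls. Their summed level was 326 to 491 CPM in controls and 698 to 798 CPM in mutants, and their median log2 fold change 1.25 (0.99 in the 5 libraries). This list and that of the substrates share *Col1a1*, *Col3a1* and *Dcn*, the last 2 named here for that reason alone. Endothelial markers had 791 to 879 CPM in controls and 725 to 901 CPM in mutants, with 1 of 10 higher and 1 lower at that p. Leukocyte markers had 38.0 to 84.8 and 47.2 to 90.8 CPM, with 1 of 8 tested higher and 0 lower. Ductal markers had 744 to 1745 CPM in controls and 1196 to 3161 CPM in mutants, with 3 of 8 higher and 0 lower (median log2 fold change 0.82, and 0.50 in the 5 libraries). Schwann cell markers passed in 0 of 6, and of 5 adipocyte markers 1 was tested, and it was higher. Acinar markers were lower in mutants at an unadjusted p below 0.05 for 7 of 9 tested (median log2 fold change -3.67, and 0.86 in the 5 libraries), and β-cell markers for 4 of 10 (median -1.25, and 0.042 in the 5). The markers counted here were, in order of the lists and named after their values were seen, *Esam* higher and *Kdr* lower (endothelial), *Cd68* (leukocyte), *Krt19*, *Krt7* and *Muc1* (ductal), *Fabp4* (adipocyte), and *Slc2a2*, *Mafa*, *Ucn3* and *Slc30a8* (β cell). In the 5 libraries 3 β-cell markers were lower and 1 higher at that p (background 10.7% of genes lower and 12.6% higher). All 7 α- and δ-cell markers tested had a log2 fold change below 0 over all 8 libraries (median -0.95). At that p 3 of them were lower and 0 higher, and in the 5 libraries 2 and 0 (median -0.58). The summed α- and δ-cell level was 23462 to 100339 CPM in controls and 12397 to 22615 CPM in mutants. None of the listed markers of these cell types was at 0 in all libraries. The part of these cells in the differences between genotypes was not tested.

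The genes most like the most abundant protease and inhibitor of the 10 (by mean CPM) were sought by Pearson's r of log2 CPM over the 8 libraries, among 15232 other genes. For *Mmp14* they were *Dgat2* (r = 0.993), which encodes an enzyme of triglyceride synthesis, *Fstl1* (r = 0.991), a secreted glycoprotein, and *Hyal2* (r = 0.990), a hyaluronidase. Within the 5 libraries of under 50 M counts r was 0.963, 0.980 and 0.953. *Fstl1* was at 91.3, 27.7, 14.8 and 83.6 CPM in the controls against 140, 122, 125 and 187 CPM in the mutants. For *Timp3* they were *Fam192a* (r = 0.982), *Cyb561* (r = 0.979), which encodes a cytochrome of secretory granules, and *Prmt6* (r = 0.976), an arginine methyltransferase. Within the 5 libraries r was 0.977, 0.890 and 0.885. These values share library and depth, and controls 2 and 3 lie at one end of both patterns. The genes were picked by r over all 8 libraries, so r within the 5 is no separate test of the likeness.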

How the data were processed

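RNA-seq counts of 4 control and 4 mutant islet libraries were used, grouped by sample title. The authors trimmed single-end reads with Trimmomatic and FASTP, aligned them to mm10 with STAR and deposited raw counts per gene from featureCounts at default parameters, with gene length in kilobases. STAR, featureCounts, edgeR and GRCm38 stand in the submitters' processing notes. The authors' own comparison table (fold changes, p-values, FDR and CPM under library numbers that differ in part from the titles) was not used here, and the batches they corrected are not named.

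Genes kept by edgeR's low count filter (15233 of 24091) were tested in R 4.3.3 with edgeR 4.0.16 (limma 3.58.1), TMM factors, the quasi-likelihood test with genotype alone, and Benjamini-Hochberg adjustment over all genes tested. Calls needed both a fold change above 2 and an adjusted p below 0.05. SE is the log2 fold change divided by the square root of F. CPM use TMM-scaled library sizes, and similarity used log2(CPM + 0.5). DESeq2 1.42.0, other normalizations, filters, terms, library sets and each library left out were alternatives. Single genes were also compared by exact permutation over the 70 splits. The tests were checked on simulated counts. Between libraries the smallest chi-square per gene was 27.9, and none was a copy of another.

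The members and gene lists were chosen with earlier results of these data known. Named genes are the 10 members, *Itgb1*, the 4 genes with the smallest p in each pathway list, and the 3 genes most like the most abundant MMP and TIMP. Other names are marked where they occur.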

Additional observations from a re-analysis of the deposited data

Results flagged for a closer look

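*Timp1*, *Mmp11* and *Mmp14* passed a test of the interaction between genotype and library size (3 libraries of over 50 M counts, 5 under) in edgeR's quasi-likelihood fit. The difference of the log2 fold changes, larger minus smaller libraries, was 3.98 for *Timp1* (adjusted p = 0.0126), 3.55 for *Mmp11* (adjusted p = 0.0117) and 1.74 for *Mmp14* (adjusted p = 0.0301). At an adjusted p below 0.05 the interaction passed for 11.4% of all genes tested, and it rests on mutant 3, the one mutant library of over 50 M counts, against controls 2 and 3. Mutant 3 was also the one female mutant, and what belongs to this library, to sex and to genotype cannot be told apart here. *Mmp2* did not pass (difference 2.30, adjusted p = 0.0527 from edgeR's test). Acinar and β-cell markers were higher in controls 2 and 3 than in mutant 3 (summed acinar level 3316 and 10311 against 124 CPM, summed β-cell level 121335 and 174173 against 49586 CPM). Their part in these differences was not tested.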

How the results depend on the processing

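Over all genes, 111 were called higher and 76 lower by DESeq2, 62 and 29 by edgeR's likelihood ratio test, and 7 and 3 in the 5 libraries of under 50 M counts, against 0 in the quasi-likelihood fit, which called 3 higher with a term for the division. With each library left out both counts stayed at 0. Members at an unadjusted p below 0.05 were 1 to 3 higher and 0 to 1 lower (*Timp3*, without control 4) with 1 library left out. With the replicate number as a block 5 members were higher at that p, *Mmp2* and *Mmp15* added, and 0 genes passed the threshold. The share of all genes at that p was not computed with the block or with 1 library left out. These counts of members therefore have no background beside them. Deviations of same-numbered libraries correlated at 0.43, -0.030, 0.43 and 0.23. Mutants 1, 3 and 4 each correlated best with the control of the same number, and control 3 and mutant 3 were both female and over 50 M counts. Mutant 2 correlated best with control 4 (0.22), and the labels name no shared animal or day, so the numbers were not taken as pairs. Whether same-numbered libraries share a batch was not tested. The median of the members was 1.67 in mutant 3 against controls 2 and 3. The mean log2 ratio of inhibitor to protease differed by -0.43 in the 5 libraries. Signs turned for *Mmp11* (-0.47 in the 5 libraries, -0.19 for the 4 mutants against controls 1 and 4), *Timp3* (0.13 and 0.22), *Mmp16* (0.23 in mutant 3 against controls 2 and 3) and *Timp2* (-0.44 there, and -0.11 to 0.40 with 1 library left out). The cause was not tested. The log2 fold changes of *Mmp2*, *Mmp9*, *Mmp14*, *Mmp15*, *Timp1* and *Itgb1* kept their direction under all 19 alternatives, that of *Mmp14* between 0.98 and 2.77. *Mmp14* passed the threshold under 1 of them, DESeq2. At 8 to 60 reads for *Mmp9* and 0 to 6 for *Timp4*, depth limits both.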

Other observations

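Among MMPs outside the 10, *Mmp3* (stromelysin 1), named after its values were seen, was at 48.1, 1.89, 0.456 and 57.2 CPM in the controls against 114, 68.8, 9.42 and 105 CPM in the mutants. Mutant 3 and controls 2 and 3, the 3 libraries of over 50 M counts, were below the other 5. On the log2 scale the means differed by 1.47 (SE 1.26, edgeR adjusted p = 0.583), 0.86 in the 5 libraries and 3.02 in mutant 3 against controls 2 and 3. *Mmp24*, which encodes a membrane-anchored MMP found in neurons, had means of 27.1 ± 3.88 CPM in controls and 27.5 ± 2.57 CPM in mutants (SD, n = 4 a group). On the log2 scale the difference was 0.019 (SE 0.14), and is also named after its values were seen.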
